A study of Homo sapiens with 7 samples.

Results

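SUP-HD1 is a cell line derived from Hodgkin lymphoma (HL), and its expression profile was set against those of the other 6 HL cell lines of the series, L-428, L-540, L-1236, U-HO1, KM-H2 and HDLM-2. SUP-HD1 was 1 of 7 samples, taken by its sample title, and it was represented by 1 array. All 7 samples were total RNA of established lines, and the labels name no treatment, genotype or allele that separates them. Each line is a culture grown from the cells of 1 patient, so a difference between lines is also a difference between patients. For every gene the SUP-HD1 level was compared with the mean of the other 6 lines, and the gap to the nearest of the 6 was taken. No line had a replicate array, so nothing was tested, and the values given are descriptions of these arrays.

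Hodgkin/Reed-Sternberg (HRS) cells, the malignant cells of HL, descend in most cases from B-cells that have lost most of the B-cell expression programme. They live on signals from cytokine receptors, the JAK-STAT pathway and NFkB, and they carry surface molecules such as the TNF receptor CD30 and the checkpoint ligand PD-L1. Interferons, the cytokines of antiviral defence, act through the same JAK-STAT kinases and switch on a large set of genes that restrict viruses.

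The arrays (HG U133 Plus 2.0) read 54675 probe sets, groups of short probes against a stretch of a transcript, and the values are log2 levels after RMA, on which a difference of 1 is a 2-fold difference. For each of 19775 genes the brightest probe set, by its mean across all lines, was used. Olfactory receptors are genes of the nose, and the level under which 95% of their 107 probe sets fell served as background, which was 4.49 in SUP-HD1 and 4.51 to 5.59 in the other lines, highest in L-1236. Above it lay 11636 genes in SUP-HD1, against 8609 to 11452 in the other lines. The SUP-HD1 array correlated with the others at r between 0.820 (L-1236) and 0.894 (L-428) over all probe sets, which share the array type and the normalization. The methods name 2 laboratories without giving the lines of each, so laboratory and line cannot be told apart. U-HO1 stood apart in the control probe sets for 18S ribosomal RNA, at 11.1 against 5.23 to 7.06 in the other lines, SUP-HD1 included. Probe sets against 1 gene gave SUP-HD1 differences from the mean of the 6 with an SD of 0.59, pooled over 7283 genes, and this spread stands in for an error.

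SUP-HD1 lay at least 1 above all 6 other lines for 282 genes, or 1.43% of those measured, and at least 1 below all 6 for 112 genes, or 0.566%. Genes counted as above had to exceed the background of the SUP-HD1 array, and genes counted as below had to exceed background in all 6 other lines. The same count gave 219 to 516 genes above and 58 to 996 genes below for the other lines, so SUP-HD1 was within the range of the series. L-1236, with its high background, had both 516 and 996. Without L-1236, 230 genes of SUP-HD1 were counted as below, 108 of them among the 112, and 312 as above. At 89 of the 282 genes none of the other lines was above its background, and at 50 of the 112 genes SUP-HD1 itself was below background, so that the size of those gaps is not exact. The genes next to the threshold were TYW3 with a gap of 1.0 and RIOK2 with 0.99 above the other lines, and RUNX3 with 1.0 and TIFA with 0.99 below them. The median difference over all genes was 0.01. Where 2 or more probe sets of a counted gene exceeded background, SUP-HD1 was highest at every such probe set for 104 of 145 genes and lowest at every such probe set for 36 of 75.

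**Figure D1:**
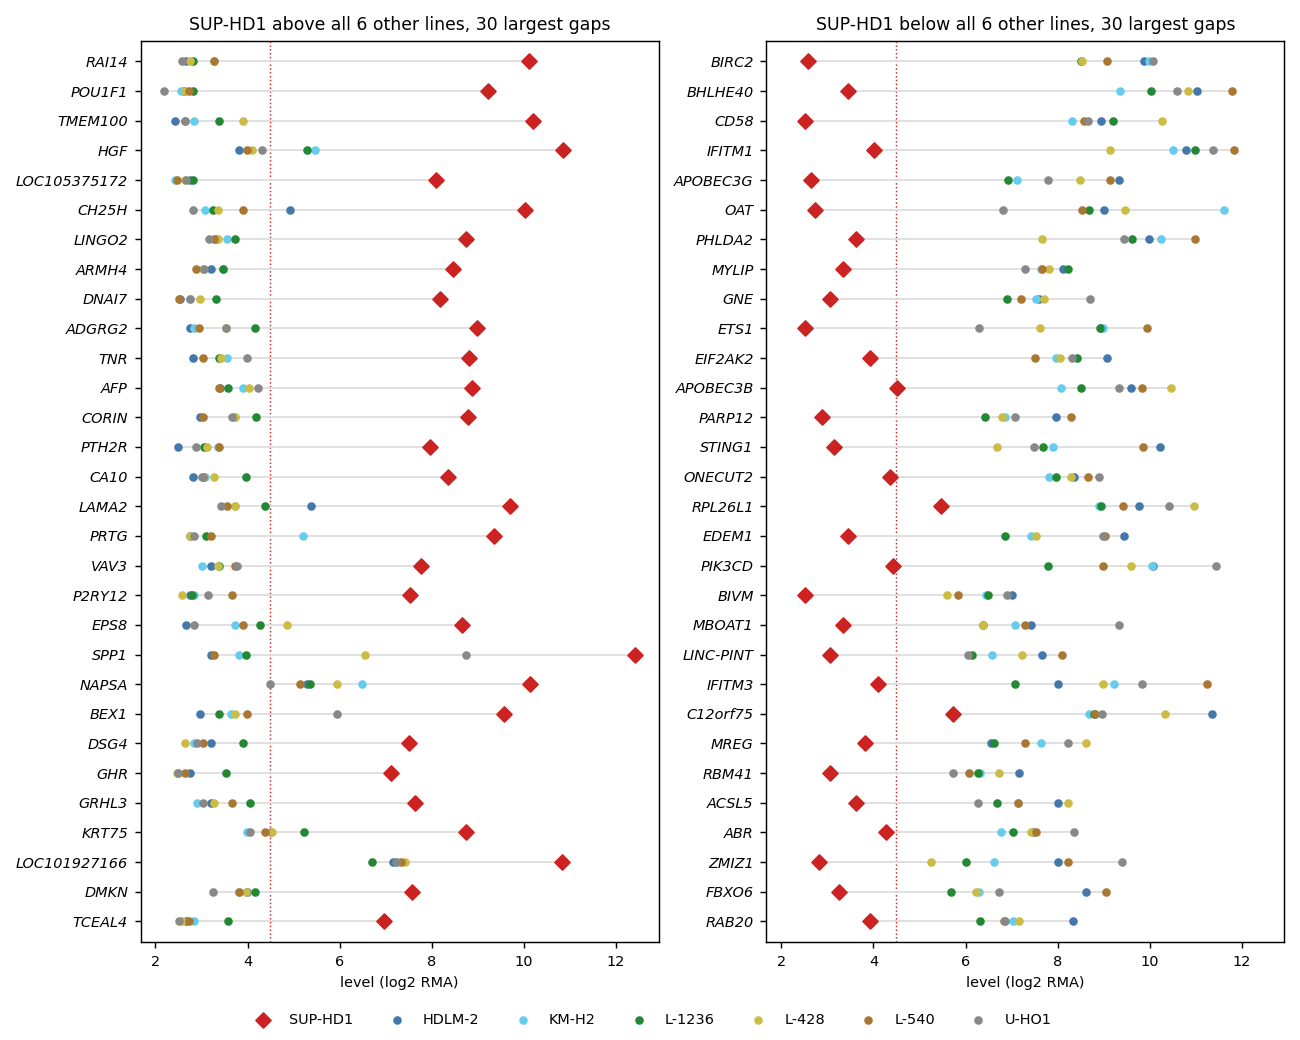
Levels (x axis, log2 RMA) of the 30 genes with the largest gap above (left) and the 30 with the largest gap below (right) the other 6 lines, 1 point per line, with SUP-HD1 as red diamonds and the background of its array as a dotted line. The gap was at least 4 for 18 genes above and for 7 genes below.

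The label was checked against marker genes. Of 9 HRS markers, SUP-HD1 had 8 above background, against 7 to 9 in the other lines. CCL17, a chemokine that attracts T-cells, stood at 9.46 in SUP-HD1, against 6.64 to 13.07 in the other lines with a median of 8.71. TRAF1, an adaptor of TNF receptors and a target of NFkB, was at 8.40 in SUP-HD1, against 4.97 to 9.17 with a median of 7.80. FSCN1, an actin bundler used as an HRS stain, was at 9.46 in SUP-HD1, against 5.72 to 12.10 with a median of 9.37. In these markers SUP-HD1 was near the middle of the series. The exception was TNFRSF8, the gene of CD30, with 4.36 in SUP-HD1, against 9.47 in HDLM-2, 7.25 in KM-H2, 6.13 in L-1236, 8.64 in L-428, 10.99 in L-540 and 9.15 in U-HO1. The TNFRSF8 level was below background in SUP-HD1 and above it in all 6 other lines, a gap of 1.77 read from a single probe set. In bulk RNA, fewer cells with a transcript and less transcript per cell cannot be told apart. Of 6 B-cell markers, SUP-HD1 had 4 above background, against 1 to 3 in the other lines, and their summed level was 9.99 on the log2 scale, against 7.27 to 8.91. The sum was taken over unlogged levels. In SUP-HD1 it rests mostly on POU2AF1, at 9.39, for which SUP-HD1 was highest at 1 of 2 probe sets. The other lines include HDLM-2 and L-540, which are T-cell-derived, so B-cell comparisons here are not among B-cell-derived lines alone. T- and NK-cell markers were above background for 3 of 7 in SUP-HD1, against 0 to 4 in the other lines. Myeloid markers exceeded it for 1 of 5, and the markers of fibroblasts and endothelium, of epithelium and of erythroid cells and megakaryocytes for 1 each.

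The low side of SUP-HD1 held antiviral genes. The list of type I interferon response genes had 34 measured members, of which 7 lay at least 1 below all 6 other lines and 0 above, against 0.566% of all genes below. The list median was -1.21 relative to the mean of the 6, against 0.01 for all genes. Among the 33 members above background in at least 1 line, 26 were lower than that mean and 7 higher. IFITM1, a membrane protein that blocks virus entry, stood at 4.01 in SUP-HD1, against 10.78 in HDLM-2, 10.51 in KM-H2, 10.99 in L-1236, 9.14 in L-428, 11.82 in L-540 and 11.37 in U-HO1. It was below background in SUP-HD1 alone, with a gap of 5.13. The neighbouring paralogs were lowest in SUP-HD1 too, with IFITM3 at 4.10 in SUP-HD1, against 7.08 to 11.24 in the other lines, and IFITM2 at 4.51 in SUP-HD1, against 6.64 to 12.14. Each of the 3 genes was read by a single probe set, and near-identical sequence may let these probes read more than 1 of them. EIF2AK2, the kinase PKR that stops translation on double-stranded RNA, stood at 3.92 in SUP-HD1, against 9.08 in HDLM-2, 7.96 in KM-H2, 8.42 in L-1236, 8.05 in L-428, 7.51 in L-540 and 8.31 in U-HO1. All 3 probe sets of EIF2AK2 had SUP-HD1 lowest. ISG15, a ubiquitin-like protein, was lower by less and stayed above background, with 7.67 in SUP-HD1, against 8.92 in HDLM-2, 9.70 in KM-H2, 10.47 in L-1236, 9.52 in L-428, 9.61 in L-540 and 10.61 in U-HO1. The other 2 were IFI35, at 4.43 in SUP-HD1, against 5.72 to 8.54, and SAMD9L, an inhibitor of translation, at 3.63 in SUP-HD1, against 4.86 to 8.31.

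The promoters of 4 of these genes are shown because they held the core of a common control element of interferon-stimulated genes, while those of IFI35 and SAMD9L held none. That of BST2 is shown because this antiviral gene of the same list was not low, with 9.67 in SUP-HD1, against 8.22 to 9.80 in the other lines. The windows run from 250 bases before to 50 bases after the gene start in RefSeq annotation of GRCh38.p14, written 5′ to 3′ on the strand of the gene. Capitals mark matches to the core of the interferon-stimulated response element, GAAA, any 2 bases and GAAA again, searched on both strands and without other motifs. They lie at chr11:313790-314089 (IFITM1, plus strand), chr11:320811-321110 (IFITM3, minus strand), chr2:37156931-37157230 (EIF2AK2, minus strand), chr1:1013247-1013546 (ISG15, plus strand) and chr19:17405581-17405880 (BST2, minus strand). BST2 was chosen after its values were seen.
IFITM1: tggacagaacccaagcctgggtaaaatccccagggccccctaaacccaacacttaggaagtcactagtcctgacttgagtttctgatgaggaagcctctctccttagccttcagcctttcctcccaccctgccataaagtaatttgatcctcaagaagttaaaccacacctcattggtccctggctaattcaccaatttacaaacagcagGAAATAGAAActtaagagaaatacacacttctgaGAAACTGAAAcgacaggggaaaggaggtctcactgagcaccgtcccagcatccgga
IFITM3: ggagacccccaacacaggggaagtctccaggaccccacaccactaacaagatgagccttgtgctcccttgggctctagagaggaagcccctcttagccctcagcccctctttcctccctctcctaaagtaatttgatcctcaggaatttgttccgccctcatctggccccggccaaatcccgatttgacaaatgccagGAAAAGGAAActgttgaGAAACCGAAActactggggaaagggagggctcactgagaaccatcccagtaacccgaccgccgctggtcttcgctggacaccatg
EIF2AK2: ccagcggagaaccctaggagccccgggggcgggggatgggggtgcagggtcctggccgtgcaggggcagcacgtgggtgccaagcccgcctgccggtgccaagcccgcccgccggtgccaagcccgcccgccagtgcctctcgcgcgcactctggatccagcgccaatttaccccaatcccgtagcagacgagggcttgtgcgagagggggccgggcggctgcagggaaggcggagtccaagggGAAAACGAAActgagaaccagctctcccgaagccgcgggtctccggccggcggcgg
ISG15: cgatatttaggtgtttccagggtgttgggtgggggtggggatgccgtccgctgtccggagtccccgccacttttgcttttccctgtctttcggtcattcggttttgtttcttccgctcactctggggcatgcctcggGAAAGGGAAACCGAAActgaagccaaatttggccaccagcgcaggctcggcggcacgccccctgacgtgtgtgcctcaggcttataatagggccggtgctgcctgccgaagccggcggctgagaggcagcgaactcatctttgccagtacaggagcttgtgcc
BST2: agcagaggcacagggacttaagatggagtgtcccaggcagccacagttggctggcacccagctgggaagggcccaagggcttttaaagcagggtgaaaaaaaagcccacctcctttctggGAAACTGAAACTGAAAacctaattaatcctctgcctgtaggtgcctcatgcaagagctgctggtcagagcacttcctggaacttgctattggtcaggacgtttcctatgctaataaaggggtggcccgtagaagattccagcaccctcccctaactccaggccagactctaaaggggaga

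Of 15384 promoters of measured genes, 453 held the core, or 2.94%. It was found in 18 of 26 promoters of the type I interferon response list, or 69.2%. Among list members counted as below, 4 of 6 promoters held it, or 66.7%, and among the members not counted as below 14 of 20, or 70.0%. Over all genes counted as below in SUP-HD1 the share was 8 of 93 promoters, or 8.60%, and over those counted as above 8 of 228, or 3.51%. The 8 promoters of genes counted as below include the 4 of the interferon list. A match describes these letters in this window and is not a measured binding site.

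Not all interferon-inducible genes were low in SUP-HD1. OAS1, which makes the activator of RNase L, stood at 10.53 in SUP-HD1, against 8.78 to 10.04 in the other lines with a median of 9.38, although its second probe set placed SUP-HD1 lowest. ISG20, an RNA exonuclease, was at 10.68 in SUP-HD1, against 7.29 to 10.42 with a median of 8.44. TRIM22 was second to KM-H2 only, with 7.64 in SUP-HD1, against 8.33 in KM-H2 and 2.76 to 5.19 in the other 5 lines. Those 3 genes sat at the high end of the series, unlike the IFITM genes. SAMD9, IFI6 and USP18 had SUP-HD1 lowest by 1.59, 1.41 and 1.17, and were not counted because at least 1 of the other lines was itself below background. These members were named after their values were seen.

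**Figure D2:**
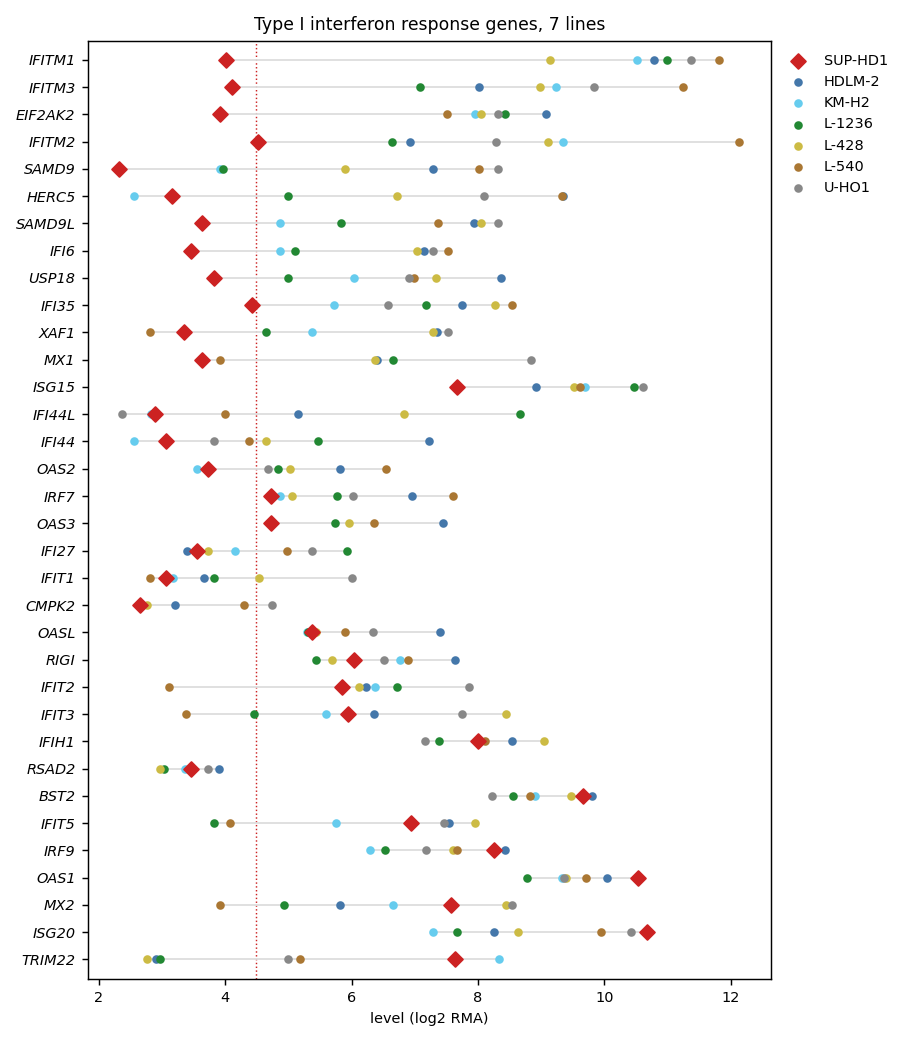
Levels (x axis, log2 RMA) of the 34 measured type I interferon response genes, 1 point per line, ordered by the SUP-HD1 level minus the mean of the other 6 lines, with SUP-HD1 as red diamonds and the background of its array as a dotted line. The 3 IFITM genes and EIF2AK2 are at the top with SUP-HD1 apart on the left, and ISG20 and TRIM22 at the bottom with SUP-HD1 on the right.

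Sensors of foreign nucleic acid were split, while most measured APOBEC3 genes, which encode editing enzymes, had SUP-HD1 lowest. STING1, the adaptor that signals from cytosolic DNA, stood at 3.15 in SUP-HD1, against 10.23 in HDLM-2, 7.89 in KM-H2, 7.68 in L-1236, 6.69 in L-428, 9.86 in L-540 and 7.48 in U-HO1. SUP-HD1 was below background and lowest at both probe sets of STING1. PARP12, an antiviral ADP-ribosyltransferase, was at 2.88 in SUP-HD1, against 6.43 to 8.29 in the other lines with a median of 6.96. Its relatives lay on the other side, with PARP9 at 8.99 in SUP-HD1, against 3.0 to 7.43, and its partner DTX3L, the next measured gene on chromosome 3, at 9.29 in SUP-HD1, against 2.76 to 8.24. SAMHD1, which depletes the nucleotides that viruses need, was at 8.76 in SUP-HD1, against 6.02 to 7.52. Of 31 measured nucleic acid sensing genes, a list drawn up after values were seen, 3 were counted as above and 3 as below. The shares over all genes were 1.43% and 0.566%. APOBEC3B, a cytidine deaminase, stood at 4.51 in SUP-HD1, against 9.60 in HDLM-2, 8.07 in KM-H2, 8.51 in L-1236, 10.45 in L-428, 9.82 in L-540 and 9.33 in U-HO1. APOBEC3G was at 2.65 in SUP-HD1, against 6.93 to 9.32, but its 2 probe sets disagreed, since SUP-HD1 was highest of the 7 lines at the other. Of 5 measured APOBEC3 genes, a list also made after values were seen, 4 had SUP-HD1 lowest, against 11.8% of all genes. Among these, APOBEC3C and APOBEC3F were within 1 of the next line. Only 4 of the 5 exceeded background in at least 1 line, with 3 lower than the mean of the 6 and 1 higher.

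Genes of the interferon gamma system went both ways. Those described here, apart from CXCL9 and CD274, were named after their values were seen. Of 27 measured members, 1 was counted as above and 0 as below, against 1.43% and 0.566% of all genes. The list median was -0.39, and among the 26 expressed members 13 were higher than the mean of the 6 and 13 lower. IFNG itself stood at 2.88 in SUP-HD1, below background, and 6.02 in L-540. CXCL10, a chemokine for activated T-cells, was at 11.55 in SUP-HD1, against 3.82 in HDLM-2, 10.01 in KM-H2, 10.90 in L-1236, 6.31 in L-428, 4.15 in L-540 and 9.37 in U-HO1. SUP-HD1 was highest, within 1 of L-1236. CXCL9, its relative, was at 5.56 in SUP-HD1, against 3.17 to 4.48 in the other lines, and was the member counted as above. IRF8, a transcription factor of B-cells and myeloid cells, was at 10.03 in SUP-HD1, against 9.40 in L-428 and 4.46 to 7.40 in the other 5 lines. CD274, the gene of PD-L1, was at 11.52 in SUP-HD1, against 11.28 in HDLM-2 and 5.79 to 8.49 in the other 5 lines. For CD274, SUP-HD1 and HDLM-2 differed by less than the spread between probe sets and stood together above the rest. IL12RB1, a receptor chain for the inducers of interferon gamma, was lowest in SUP-HD1, at 3.06 against 5.31 to 8.23. It was not counted because at least 1 of the other lines was not above its background.

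HGF was counted as above, while the pathway around it was not high. Of 10 measured HGF pathway genes, a list made after values were seen, 1 was counted as above and 1 as below. The shares over all genes were 1.43% and 0.566%, and the list median was -0.41. Among the 9 expressed, 2 were higher than the mean of the 6 and 7 lower. HGF, hepatocyte growth factor, stood at 10.85 in SUP-HD1, against 3.82 in HDLM-2, 5.47 in KM-H2, 5.29 in L-1236, 4.10 in L-428, 3.99 in L-540 and 4.32 in U-HO1. SUP-HD1 was highest at all 5 probe sets of HGF. MET, its receptor, was at 10.12 in SUP-HD1, against 10.91 in L-428 and 3.39 to 8.34 in the other 5 lines, so that SUP-HD1 was second. GAB2, a docking protein downstream of such receptors, was counted as below, with 4.36 in SUP-HD1, against 6.28 to 8.29. Of 44 measured receptor tyrosine kinase genes, 2 were counted as above and 0 as below, against 1.43% and 0.566% of all genes. These were ERBB4, a neuregulin receptor, at 6.35 in SUP-HD1, against 3.31 to 3.99, and NTRK2, the receptor of brain-derived neurotrophic factor, at 7.53 in SUP-HD1, against 2.70 to 6.29. PDGFRA was at 10.61 in SUP-HD1, against 10.36 in U-HO1, 9.59 in KM-H2 and 2.67 to 6.29 in the other 4 lines. The Notch ligand JAG1 was at 8.92 in SUP-HD1, against 7.76 in U-HO1 and 2.46 to 5.78 in the other 5 lines. MET and GAB2 were named after their values were seen.

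Several genes with large gaps encode secreted or matrix proteins, and they too were picked by their gaps. The list of matrix metalloproteinases and TIMPs had a median of -0.11, with 10 expressed members higher than the mean of the 6 and 14 lower. In it 1 of 31 measured was counted as above, against 1.43% of all genes. SPP1, osteopontin, a secreted cytokine of bone and macrophages, stood at 12.41 in SUP-HD1, against 3.21 in HDLM-2, 3.82 in KM-H2, 3.97 in L-1236, 6.55 in L-428, 3.28 in L-540 and 8.73 in U-HO1. U-HO1 was the nearest line, 3.68 lower. LAMA2, a laminin chain of basement membranes, was at 9.69 in SUP-HD1, against 3.42 to 5.38 in the other lines, and SUP-HD1 was highest at all 4 probe sets. TNR, a matrix protein of the nervous system, was at 8.80 in SUP-HD1, against 2.81 to 3.99. CORIN, the protease that matures a heart hormone, was at 8.79 in SUP-HD1, against 2.97 to 4.19. Both TNR and CORIN were below background in all 6 other lines. NAPSA, an aspartic protease of lung and kidney, was at 10.12 in SUP-HD1, against 4.48 to 6.48, and its near-identical neighbour NAPSB at 9.73, against 3.38 to 7.25, so the source of this signal is uncertain between them. TIMP4, an inhibitor of matrix proteases, was at 7.80 in SUP-HD1, against 2.76 to 6.08. CH25H, the enzyme that makes 25-hydroxycholesterol and is itself inducible by interferon, was at 10.02 in SUP-HD1, against 2.81 to 4.93.

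Single genes known from other organs were among those with the largest gaps and are described one by one, since they were picked by their gaps. POU1F1, the transcription factor of hormone cells in the pituitary, stood at 9.21 in SUP-HD1, against 2.61 in HDLM-2, 2.55 in KM-H2, 2.82 in L-1236, 2.64 in L-428, 2.72 in L-540 and 2.19 in U-HO1. It was the only one of 44 measured genes of the list of other homeobox genes that was counted, against 1.43% of all genes counted as above. It rests on a single probe set. RAI14, an actin-binding protein, was below background in all 6 other lines, with 10.10 in SUP-HD1, against 2.58 to 3.28. TMEM100, a membrane protein of lung and vessels, was at 10.19 in SUP-HD1, against 2.42 to 3.90. AFP, the serum protein of fetal liver, was at 8.88 in SUP-HD1, against 3.39 in HDLM-2, 3.91 in KM-H2, 3.58 in L-1236, 4.02 in L-428, 3.38 in L-540 and 4.23 in U-HO1. Its neighbours on chromosome 4 stood out with it, ALB at 5.91 in SUP-HD1, against 2.42 to 3.46, and RASSF6 at 6.11, against 2.52 to 3.48. Of 16 measured serum protein genes of fetal liver, a list made after values were seen, only AFP, ALB and AHSG were counted. All 3 were above, against 1.43% of all genes, while SERPINA1 stood at 7.10 in SUP-HD1, against 6.04 to 7.67. Receptors for hormones and nucleotides were among the largest gaps as well, GHR for growth hormone at 7.12 in SUP-HD1, against 2.46 to 3.52, and PTH2R for parathyroid peptides at 7.96, against 2.48 to 3.38. P2RY12, an ADP receptor of platelets and microglia, was at 7.52 in SUP-HD1, against 2.58 to 3.66. Genes of hair and skin, KRT75, DSG4, DMKN and GRHL3, had gaps of 3.52, 3.61, 3.41 and 3.59. The 17 measured epithelial markers held no counted gene, against 1.43% of all genes counted as above and 0.566% as below.

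BEX1 and TCEAL4 belong to a family of small proteins encoded together on chromosome X. BEX1 stood at 9.57 in SUP-HD1, against 5.94 in U-HO1 and 2.97 to 3.99 in the other 5 lines. TCEAL4 was at 6.96 in SUP-HD1, against 2.51 to 3.58. Of 12 measured family members, again a list made after values were seen, 5 had SUP-HD1 highest, against 12.9% of all genes. The list median was 2.21 relative to the mean of the 6. BEX3 went the other way, at 4.01 in SUP-HD1 and 12.34 in U-HO1.

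The B-cell genes of SUP-HD1 were mixed. The list of B-cell transcription factors had 27 measured members, with 2 counted as above and 1 as below, against 1.43% and 0.566% of all genes. The list median was 0.62. POU2AF1, the coactivator of octamer factors in B-cells, stood at 9.39 in SUP-HD1, against 3.48 in HDLM-2, 3.36 in KM-H2, 6.81 in L-1236, 3.20 in L-428, 2.80 in L-540 and 4.59 in U-HO1. SUP-HD1 was highest by 2.58 at this probe set but not at the other of the 2. POU2AF3, the gene next to it, was at 9.56 in SUP-HD1, against 2.67 to 8.40. IKZF3, the lymphoid zinc finger Aiolos, was at 8.83 in SUP-HD1, against 5.72 to 7.64. PAX5, which commits cells to the B lineage, was at 7.80 in SUP-HD1, against 8.18 in U-HO1, 7.81 in L-1236 and 4.60 to 5.74 in the other 4 lines. ETS1, by contrast, was at 2.51 in SUP-HD1, against 8.95 in HDLM-2, 8.98 in KM-H2, 8.91 in L-1236, 7.61 in L-428, 9.94 in L-540 and 6.30 in U-HO1. It was below background in SUP-HD1 alone, with SUP-HD1 lowest at 2 of 3 probe sets.

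Of 39 measured genes of the B-cell receptor and its signalling, 2 were counted as above and 2 as below, against 1.43% and 0.566% of all genes, and the median was -0.49. The 4 were VAV3 and BANK1 above, and VAV1 and INPP5D below. VAV3, a signalling protein of the VAV family, stood at 7.77 in SUP-HD1, against 3.21 in HDLM-2, 3.0 in KM-H2, 3.38 in L-1236, 3.36 in L-428, 3.73 in L-540 and 3.76 in U-HO1. VAV1, the family member of blood cells, was at 3.73 in SUP-HD1, against 5.47 to 7.0. VAV3 was above background in SUP-HD1 alone, and VAV1 below background in SUP-HD1. BANK1, an adaptor of B-cells, was at 7.96 in SUP-HD1, against 5.38 in L-1236 and 3.14 to 4.36 in the other 5 lines, at all 3 probe sets the highest. CD79A was near background, with 5.28 in SUP-HD1, against 3.99 to 5.48, and MS4A1, the gene of CD20, was below it at 2.51. RGS13, a regulator of G proteins in germinal centre B-cells that was named after its values were seen, was at 9.64 in SUP-HD1, against 7.65 in L-1236 and 2.48 to 7.04 in the other 5 lines.

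Of 23 measured PI3K subunits and lipid phosphatases, 2 were counted as above and 2 as below, against 1.43% and 0.566% of all genes, and the median was -0.15. PIK3CD, the catalytic subunit p110 delta of leukocytes, stood at 4.43 in SUP-HD1, against 10.07 in HDLM-2, 10.04 in KM-H2, 7.80 in L-1236, 9.60 in L-428, 8.99 in L-540 and 11.43 in U-HO1. It was below background in SUP-HD1 and lowest there at both probe sets. PIK3CG, the p110 gamma subunit, was at 8.30 in SUP-HD1, against 9.54 in L-428 and 2.67 to 4.08 in the other 5 lines, and PIK3R6, a regulatory partner of p110 gamma, at 7.65 in SUP-HD1, against 3.28 to 6.58. SUP-HD1 was thus low for the delta form and high for the gamma form with its partner. INPP5D, the phosphatase SHIP1, which removes the product of PI3K, was lowest in SUP-HD1 at all 3 probe sets. PIK3C3, counted as above at 9.75 against 7.64 to 8.33, was lowest in SUP-HD1 at 1 of its 7 probe sets and highest at 3. Leukocyte actin regulators were low, with WAS at 6.60 in SUP-HD1, against 8.49 to 9.83, and CORO1A at 6.19 in SUP-HD1, against 7.77 to 11.23. Of 25 measured haematopoietic actin and VAV genes, listed after values were seen, 21 were lower than the mean of the 6, 4 were counted as below and 1, VAV3, as above, against 0.566% and 1.43% of all genes.

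**Figure D3:**
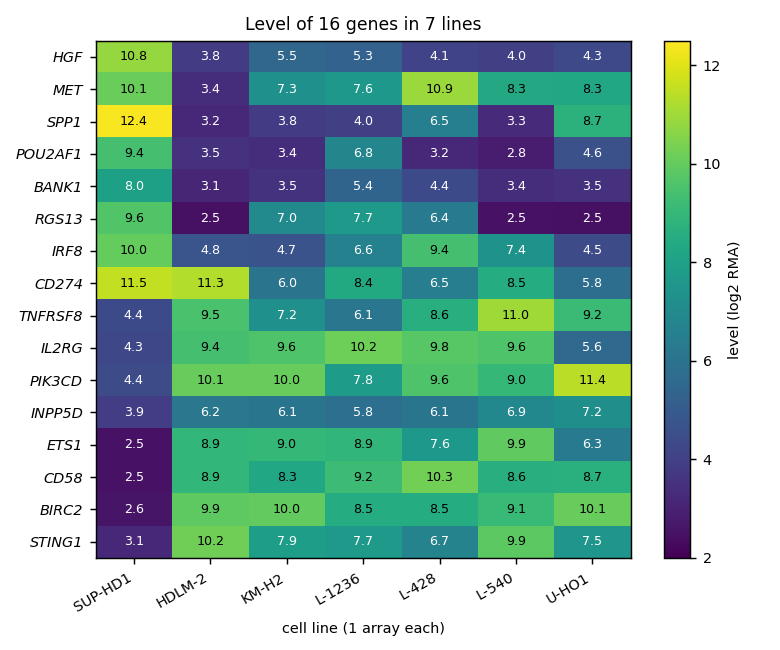
Levels (colour and printed value, log2 RMA) of 16 genes named in the text (rows) in the 7 lines (columns), SUP-HD1 at the left. In SUP-HD1 the upper 8 genes are at 7.96 (BANK1) or more, and the lower 8 at 4.43 (PIK3CD) or less.

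CD58 and IL2RG, which serve contact and signalling between lymphocytes, were counted as below. They were single cases in their lists. Of 44 measured integrins and adhesion molecules, 1 was counted as below and 0 as above. Of 29 costimulatory and checkpoint genes, 0 were counted as below and 1 as above. The shares over all genes were 0.566% below and 1.43% above, so such counts say little about these lists. CD58, the ligand of CD2 on T-cells and NK-cells, stood at 2.51 in SUP-HD1, against 8.94 in HDLM-2, 8.30 in KM-H2, 9.20 in L-1236, 10.26 in L-428, 8.57 in L-540 and 8.65 in U-HO1. All 5 probe sets of CD58 had SUP-HD1 lowest. None of the 4 measured genes on either side of CD58 on chromosome 1 was counted. Their differences from the mean of the 6 were lowest for IGSF3, at -2.74, TSPAN2, at -2.08, and VANGL1, at -1.67, and highest for NHLH2, at 1.02. SUP-HD1 was the lowest line for TSPAN2, VANGL1 and PTGFRN, by 0.35, 0.05 and 0.36. IL2RG, the common gamma chain of receptors for interleukin 2 and its relatives, was at 4.27 in SUP-HD1, against 5.58 in U-HO1 and 9.40 to 10.17 in the other 5 lines. Its partner chains were present, IL2RA at 9.80 in SUP-HD1, against 3.17 to 11.35, and IL2RB at 10.76 in SUP-HD1, second only to L-540, with 5.36 in U-HO1 as the lowest. IL2RA and IL2RB were named after their values were seen. Among 64 measured interleukins and receptors, IL2RG was the only one counted, as below, against 0.566% of all genes. IL26 was at 9.39 in SUP-HD1, against 10.70 in L-540, 8.37 in HDLM-2 and 2.36 to 2.91 in the other 4 lines.

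BIRC2 and BHLHE40 were below background in SUP-HD1 and above it in all 6 other lines. BIRC2, the ubiquitin ligase cIAP1, which restrains the alternative NFkB pathway and cell death, stood at 2.58 in SUP-HD1, against 9.88 in HDLM-2, 9.99 in KM-H2, 8.51 in L-1236, 8.52 in L-428, 9.07 in L-540 and 10.06 in U-HO1. It was read by 1 probe set, and its expressed neighbour TMEM123 was at 10.18 in SUP-HD1 with a difference of -0.30. Of 30 measured NFkB pathway genes, BIRC2 was the only one counted, as below, against 0.566% of all genes, and the list median was 0.06. BHLHE40, a repressor of the clock, was at 3.45 in SUP-HD1, against 11.03 in HDLM-2, 9.36 in KM-H2, 10.03 in L-1236, 10.83 in L-428, 11.79 in L-540 and 10.60 in U-HO1. Its neighbour EDEM1 on chromosome 3, which serves protein degradation in the endoplasmic reticulum, was also counted, at 3.45 in SUP-HD1, against 6.85 to 9.45. OAT, ornithine aminotransferase, was at 2.73 in SUP-HD1, against 6.82 to 11.62, and GNE, the first enzyme of sialic acid synthesis, at 3.06, against 6.90 to 8.71. PHLDA2 was at 3.63 in SUP-HD1, against 7.67 to 10.99, and MYLIP, a ligase that degrades the LDL receptor, at 3.35, against 7.28 to 8.22, lowest at 5 of 6 probe sets. ZMIZ1 was at 2.81 in SUP-HD1, against 5.25 to 9.40, while SUP-HD1 was highest at its other 2 probe sets.

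**Figure D4:**
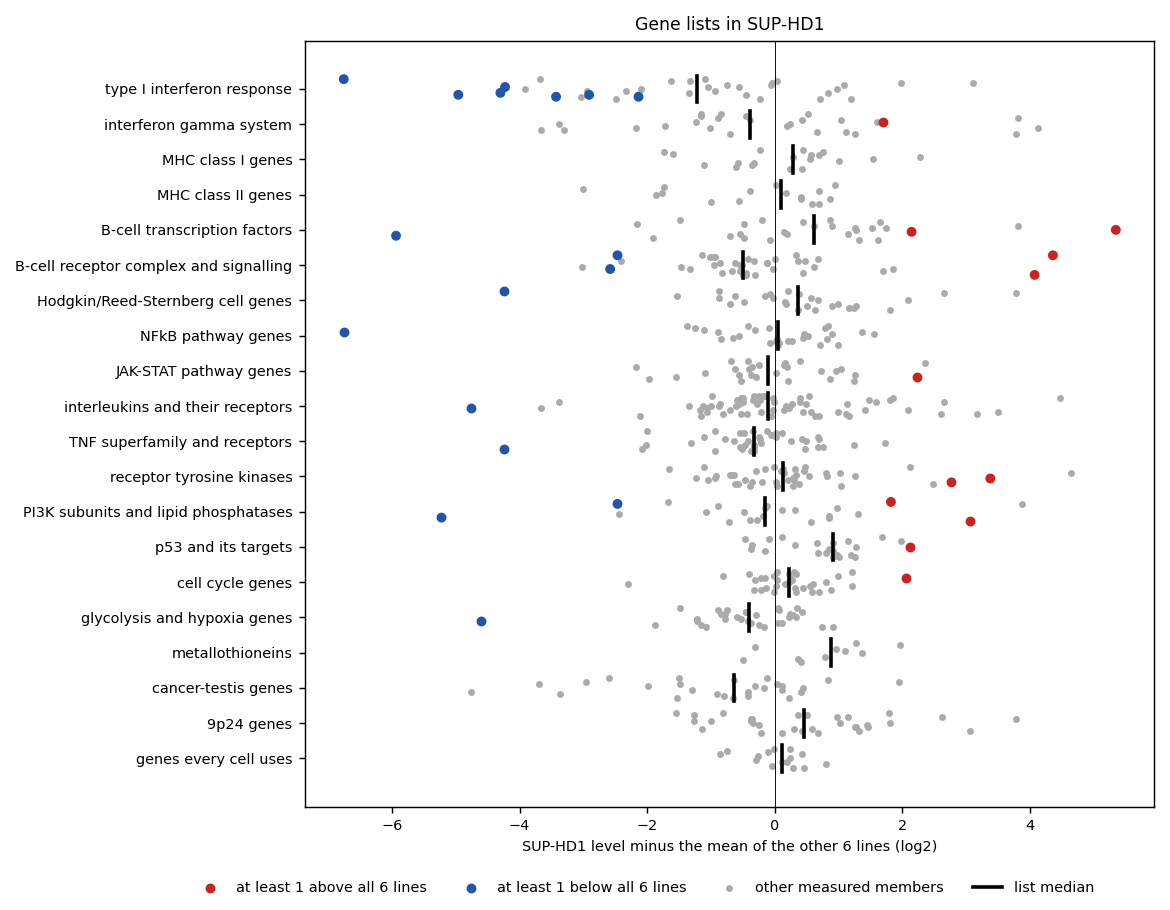
SUP-HD1 level minus the mean of the other 6 lines (x axis, log2) for each measured member of 20 gene lists (rows), with members counted as above in red, as below in blue, the rest in grey, and the list median as a black bar. The type I interferon response has the lowest median, -1.21, and p53 and its targets the highest, 0.91.

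The list of p53 and its targets had the highest median of the lists fixed for this comparison, at 0.91. In it 18 of 22 expressed members were higher than the mean of the 6. Of its 23 measured members 1 was counted as above, against 1.43% of all genes. TP53I3, a p53 target of oxidative stress, stood at 7.65 in SUP-HD1, against 4.37 to 6.51. CDKN1A, the cell cycle inhibitor p21, was at 9.65 in SUP-HD1, against 6.03 to 9.37, highest but within 1 of L-540. Metallothioneins, which bind zinc and copper, had a median of 0.88 over 10 members with 0 counted, and their near-identical sequences keep single members uncertain. MT1X was at 10.73 in SUP-HD1, against 7.08 to 10.23. Cancer-testis genes had a median of -0.65, and MAGEB2 was at 2.65 in SUP-HD1, against 2.81 in HDLM-2, 3.11 in L-540 and 9.11 to 10.70 in the other 4 lines. SUP-HD1 thus shared low MAGEB2 with HDLM-2 and L-540. MHC class II genes had a median of 0.11 and MHC class I genes of 0.29, with 0 counted in either list. Genes that every cell uses had a median of 0.11, with 0 of 15 counted. For all these lists the shares over all genes were 1.43% above and 0.566% below.

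Smaller numbers of counted members stood in other lists. The shares over all genes were 1.43% above and 0.566% below, and these members do not describe their lists. Of 26 measured polycomb complex genes, 2 were counted as below and 0 as above. The list median was 0.04, with 13 members higher than the mean of the 6 and 13 lower. The 2 were JARID2 and RING1, both of polycomb repressor complexes, RING1 at 6.89 in SUP-HD1, against 8.27 to 8.64. JARID2 was at 5.80 in SUP-HD1, against 6.92 to 8.50, but 1 of its 3 probe sets had SUP-HD1 highest. RUNX3, a transcription factor of lymphocytes, was at 6.32 in SUP-HD1, against 7.32 to 9.81. ALDOC, a glycolytic aldolase, was at 3.92 in SUP-HD1, against 5.14 in L-540, 5.15 in L-428 and 7.38 to 11.67 in the other 4 lines. ANXA4, a calcium-dependent membrane binder, was at 6.19 in SUP-HD1, against 7.84 to 9.70, and S100A2, a calcium sensor, was counted as above at 6.86 in SUP-HD1, against 3.36 to 5.29. MCM4, a subunit of the replicative helicase, was at 10.34 in SUP-HD1, against 7.12 to 9.17. TIGIT and KLRD1, receptors of T-cells and NK-cells, were counted as above near background, at 4.98 and 5.10 in SUP-HD1, against highest values of 3.82 and 3.90 in the other lines.

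Of the genes of the NKX2-2 network that the study examined in HL, 14 were measured. Of these 1, INPP5D, was counted, as below, against 0.566% of all genes. NKX2-2 was below background in SUP-HD1, at 2.73, and in the other lines, at 2.67 to 3.03. AUTS2, a chromatin regulator, was at 2.97 in SUP-HD1, against 3.03 in L-540 and 7.86 to 10.19 in the other 5 lines, so SUP-HD1 and L-540 stood together at the low end. PCGF5, its polycomb partner, was at 9.03 in SUP-HD1, against 7.63 to 8.73, a gap of 0.30 that is under the spread between probe sets, and SUP-HD1 was highest at 1 of 5 probe sets. MSX1 was at 5.91 in SUP-HD1, second to 7.52 in KM-H2.

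Neighbouring genes on a chromosome shared the direction of the SUP-HD1 difference in places. Medians over 21 neighbouring expressed genes ran from -1.20 to 1.39 across 13982 overlapping windows, with 5th and 95th percentiles of -0.47 and 0.64. The windows described were picked by these medians, so counts of higher or lower genes in them partly follow from the choice. The highest lay on chromosome 18 between ACAA2 and FECH, at 1.39. There 19 of 21 genes were higher in SUP-HD1 than the mean of the 6. Highest of the 7 lines were 15, against 12.9% of all genes. Counted as above in it were 4 genes, MYO5B, MBD1, SKA1 and FECH, against 1.43% of all genes. SKA1, of the mitotic spindle, was at 8.23 in SUP-HD1, against 4.22 to 6.89, in this window, and ONECUT2, a homeobox gene, was the opposite, at 4.36 in SUP-HD1, against 7.81 to 8.89. The next lay on chromosome 9 between RLN1 and CCDC171, at 1.38, with CD274 and PDCD1LG2 in it and 3 genes counted as above, DMAC1, NFIB and CCDC171. NFIB, a transcription factor, was at 9.77 in SUP-HD1, against 4.02 to 7.74, and highest there at all 9 probe sets. The same window stood at 0.60 in HDLM-2 relative to its other lines, and at -0.57 to 0.25 in the remaining 5. The list of 9p24 genes, which overlaps this window, had a median of 0.47. In it 0 of 32 were counted, against 1.43% of all genes above and 0.566% below. On chromosome 1 the window from IVNS1ABP to NR5A2 had a median of 1.25, and 6 genes in it were counted as above, HMCN1, TPR, ODR4, RGS13, DENND1B and NR5A2. For this window and that on chromosome 9, the share of all genes counted as above was 1.43%. The genes of these windows were named after their values were seen, and so were those of the low windows.

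Low windows lay on chromosome 2 between PLEKHH2 and FBXO11, at -1.20, on chromosome 6 between CD83 and PRL, at -1.06, and on chromosome 1 between NOL9 and GPR157, at -1.04. These windows too were picked by their medians. In the window on chromosome 2, 17 of 21 genes were lower in SUP-HD1 and 12 were lowest of the 7 lines, against 11.8% of all genes. Among the lowest was SOCS5, a suppressor of cytokine signalling, at 4.51 in SUP-HD1, against 5.52 to 7.04. The window on chromosome 6 held 4 genes counted as below, JARID2, MYLIP, ATXN1 and MBOAT1, against 0.566% of all genes. ATXN1 was at 2.81 in SUP-HD1, against 5.09 to 8.51. L-1236 was low in that window too, at -0.79, while the remaining 5 lines were at 0.18 to 0.68. Copy number was not measured on these arrays.

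**Figure D5:**
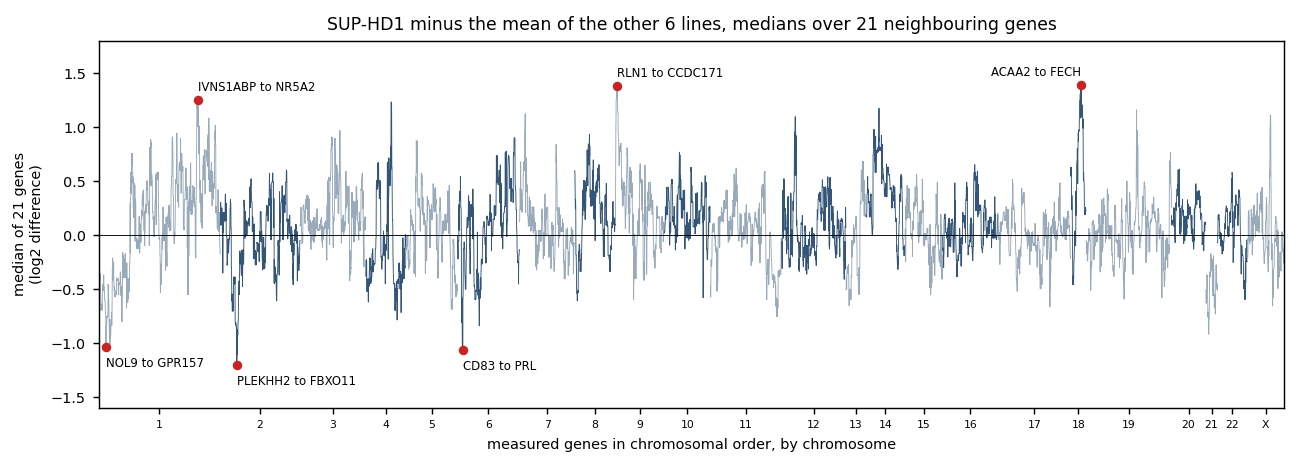
Median over 21 neighbouring expressed genes of the SUP-HD1 level minus the mean of the other 6 lines (y axis, log2), along the genes in chromosomal order (x axis, chromosomes in alternating shades). Red points mark the 3 highest windows that do not overlap, at 1.39, 1.38 and 1.25, and the 3 lowest, at -1.20, -1.06 and -1.04.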

How the data were processed

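Total RNA of 7 HL lines was hybridized as biotin-labelled cRNA to HG U133 Plus 2.0 arrays, 1 array per line. The authors deposited log2 values made by RMA, which corrects background, quantile-normalizes and summarizes probes. The submitters' notes name RMA, affy and limma. For the versions of these tools, the sources used here give nothing. Values ran from 1.99 to 14.17, and 0 columns were left unused.

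Of 54675 probe sets, 41097 had 1 gene symbol, 1801 several and 11777 none in the platform annotation. Only the first kind was used, with 41043 probe sets matched to current symbols. A gene was counted at a gap of 1 or more (log2). The named genes were the 30 largest gaps in each direction, counted members of each list (up to 8), otherwise up to 4 members with the largest difference. Genes that the study named in its work on NKX2-2 were added. XIST and Y-linked genes were left out, and further genes were named after their values were seen. The 53 lists and the comparison itself were chosen with earlier results of these data known, and 10 lists were added after values were seen. Promoters came from RefSeq on GRCh38.p14. Alternatives covered probe set choice, normalization, background, gap and left-out lines. Scripts ran in Python 3.11.15 with pandas 2.3.3 and were tested on simulated data. The number of arrays limits the precision.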

Additional observations from a re-analysis of the deposited data

Results flagged for a closer look

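In 75 measures, SUP-HD1 was checked for lying far from the other 6 lines, and 1 measure was marked. The check kept no marks for the other lines. The level of INPP5D was 3.92 in SUP-HD1, against 5.83 to 7.22 in the other 6 lines. The distance from SUP-HD1 to the nearest line, as a share of the whole range of the 7, exceeded Dixon's 95% limit. Chance alone puts some line of the 7 past this limit in about 1 in 20 such groups, and SUP-HD1 in fewer. A single mark among 75 measures may still be chance. The SUP-HD1 level was below background, and the cause was not tested.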

How the results depend on the processing

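The number of genes counted as below in SUP-HD1 depended on the processing. It was 112 as reported, 64 when all probe sets of a gene were averaged, 71 without probe sets ending in _x_at or _s_at, 43 at a gap of at least 2, and 308 without L-1236 and U-HO1. Leaving out each other line in turn gave 125 to 230, the highest without L-1236. The number counted as above was 79 at a gap of at least 2, and 312 to 380 with each line left out. Without probe sets ending in _x_at or _s_at the difference of PHLDA2 turned to 0.845 and that of JARID2 to 0.20, and with the probe set of largest variance that of PIK3C3 turned to -0.12. Not all of the 17 alternatives were run on single genes. Over those that were, 1266 of 1269 values of the 92 named counted genes kept their direction. These genes were picked by their gaps to all other lines. Leaving lines out could therefore hardly turn their direction, and this agreement is largely built in. The median of the type I interferon response ran from -1.47 to -0.94, that of p53 and its targets from 0.64 to 1.02, that of metallothioneins from -0.13 to 1.12 and that of the interferon gamma system from -0.45 to 0.31. No paired analysis was possible because 1 array was made per line. Levels under background carry no order, which bounds the gaps of silent genes.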
